A study of Mus musculus with 29 samples.

Results

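Interferon regulatory factors (IRFs) are transcription factors that share a DNA-binding domain and read interferon and innate immune signals. The genes described here are Irf1, Irf2, Irf3, Irf4, Irf5, Irf7, Irf8 and Irf9, taken as the probe sets (groups of short probes against 1 transcript) annotated to exactly 1 of them. They make up 8 of the 12393 genes measured, with 14 of the 20380 probe sets that name a single gene, and 0 probe sets shared an IRF gene with another gene. Their RNA was measured in macrophages grown from bone marrow of C57BL/6 animals, wild type and 8 weeks old, on 29 Affymetrix 3' expression arrays made from 75 ng of total RNA each. Marrow cells were kept for 7 days in Teflon bags with CSF-1, the growth factor of macrophages, at 10 ng/ml. They then stayed for 24 h with CSF-1 at 10 ng/ml, which every group received. The groups added IL-4 plus IL-6 (5 arrays), IL-4 plus IL-10 (3), IL-4 (5), IL-6 (5) or IL-10 (3), each cytokine at 10 ng/ml, or nothing further (unstimulated, 8).

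IRF proteins bind the interferon-stimulated response element and related sites. IRF3, IRF5 and IRF7 lie dormant in the cytoplasm until kinases below Toll-like receptors and nucleic acid sensors activate them, and IRF7 is the main driver of type I interferon genes. IRF9 is the DNA-binding part of ISGF3, the complex that carries type I interferon signals to the nucleus. IRF1 activates and IRF2 mostly represses interferon-responsive genes. IRF4 and IRF8 bind DNA weakly alone and pair with PU.1 or with BATF and JUN proteins, and IRF8 is a main factor of monocyte and macrophage development. In macrophages IRF4 is linked to the response to IL-4, which signals through STAT6, and IRF5 to inflammatory cytokines, while IL-6 and IL-10 signal through STAT3.

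The values are log2 intensities and groups were compared with limma, all 29 arrays in 1 fit. A gene was tested if 3 or more arrays exceeded log2 6.99, the overall median of the table, and called at an adjusted p under 0.05, adjusted over all 7153 genes tested. All 8 IRF genes passed that filter, Irf4 only through arrays that received IL-4 and 1 unstimulated array, so that its passing is tied to a difference between groups. A gene with several probe sets was represented by its brightest on average. All 10 macrophage markers measured, such as Csf1r and Adgre1, lay above the filter on every array, and 0 of 7 T and NK cell markers passed it. Of 13 markers of B and plasma cells measured, 7 passed. The arrays were also split into 2 sets by their replicate numbers, an inference that no label states. The second holds unstimulated replicates 6 to 8 and every array that received IL-10, and the first holds the rest. The labels also do not say whether replicates came from separate mice or cultures, so p-values measure the spread between these arrays, and in RNA of whole cultures a change in the cells present and a change in RNA per cell cannot be told apart.

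The promoter sequences of Irf1, Irf2 and Irf8 are shown because they hold the site that STAT proteins bind, and that of Irf4 because its RNA had the largest difference of the family. Each is the 250 bases before the gene's start in RefSeq, on build GRCm38.p6, read 5′ to 3′ along the gene. All 8 members were found in that table. Capitals mark the STAT site TTCNNNGAA in Irf1, Irf2 and Irf8, and in Irf2 also the core of the interferon-stimulated response element (GAAA, any 2 bases, GAAA) and a composite site of PU.1 and IRF proteins (GGAA, any 2 bases, GAAA), which overlap. Irf4 holds none of them.
Irf1: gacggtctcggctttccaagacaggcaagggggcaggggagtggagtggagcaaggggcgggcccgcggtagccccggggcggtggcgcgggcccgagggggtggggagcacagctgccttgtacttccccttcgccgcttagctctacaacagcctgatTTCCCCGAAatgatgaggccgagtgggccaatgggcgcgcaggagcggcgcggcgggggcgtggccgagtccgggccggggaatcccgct
Irf2: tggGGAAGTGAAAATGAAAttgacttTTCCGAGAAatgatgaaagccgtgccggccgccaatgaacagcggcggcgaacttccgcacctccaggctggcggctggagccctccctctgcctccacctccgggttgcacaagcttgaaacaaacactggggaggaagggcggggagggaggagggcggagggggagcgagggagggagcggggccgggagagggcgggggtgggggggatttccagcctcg
Irf8: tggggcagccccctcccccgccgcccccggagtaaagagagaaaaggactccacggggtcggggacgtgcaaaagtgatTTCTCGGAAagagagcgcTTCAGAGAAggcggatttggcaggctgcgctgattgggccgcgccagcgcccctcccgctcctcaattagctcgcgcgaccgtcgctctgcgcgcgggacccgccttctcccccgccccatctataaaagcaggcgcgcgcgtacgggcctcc
Irf4: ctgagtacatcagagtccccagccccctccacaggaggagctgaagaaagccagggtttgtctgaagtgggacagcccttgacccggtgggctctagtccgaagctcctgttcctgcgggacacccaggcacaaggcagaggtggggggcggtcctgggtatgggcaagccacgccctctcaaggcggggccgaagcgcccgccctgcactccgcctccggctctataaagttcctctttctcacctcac
The windows lie at chr11:53769764-53770013 (Irf1), chr8:46739495-46739744 (Irf2), chr8:120736108-120736357 (Irf8) and chr13:30748983-30749232 (Irf4), all on the plus strand. The Irf1 match TTCCCCGAA covers bases 90 to 82 before the start. The Irf8 window holds 2 matches, TTCTCGGAA at bases 171 to 163 and TTCAGAGAA at bases 153 to 145. The Irf2 match TTCCGAGAA covers bases 224 to 216, next to GAAAATGAAA at bases 241 to 232 and GGAAGTGAAA at bases 247 to 238. Over both strands of all 32851 such windows of the RefSeq table, 7.02% hold TTCNNNGAA, 2.98% hold the response element core and 2.30% hold the composite site. None of the 3 motifs was found in the windows of Irf3, Irf4, Irf5, Irf7 and Irf9, nor in the second windows of Irf1, Irf8 and Irf9. TTC and GAA with 4 bases between them, the spacing that STAT6 prefers, is in 5.85% of all windows and in no window of the 8 genes. A match is a description of letters and not of binding.

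Most members were called in every group that received IL-4, and fewer with IL-6 or IL-10 alone, where the count includes Irf4 at levels under the filter. With IL-4 plus IL-6 against unstimulated macrophages, 2 IRF genes were called higher and 4 lower, where 73.8% of all genes tested were called (35.0% higher, 38.8% lower). With IL-4 plus IL-10 it was 3 higher and 4 lower (72.1% of all genes, 38.1% higher and 34.0% lower). With IL-4 alone it was 3 higher and 4 lower (59.5%, 27.6% higher and 31.9% lower). With IL-6 it was 2 higher and 2 lower (39.3%, 16.1% higher and 23.2% lower), and with IL-10 0 higher and 2 lower (37.8%, 18.3% higher and 19.5% lower). With a term for the set and the replicate number as a random block, 5 members were called with IL-10. At these shares a count of called members says little about the family, and the direction and size of each member follow. The arrays of the 2 groups did not overlap for 4 members with IL-4 plus IL-6 (51.2% of all genes), 6 with IL-4 plus IL-10 (56.3%), 6 with IL-4 (35.0%), 2 with IL-6 (21.0%) and 2 with IL-10 (22.2%).

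**Figure D1:**
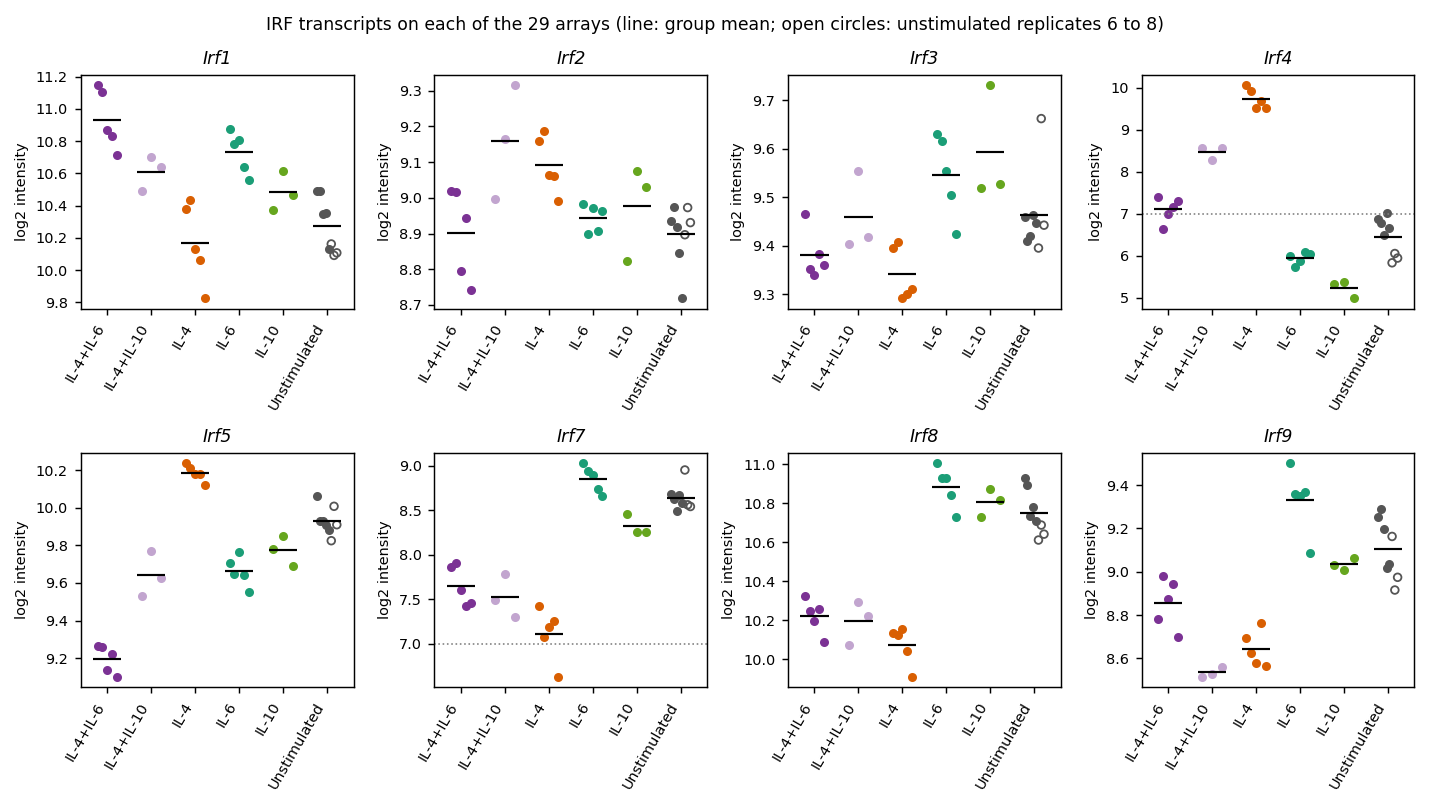
Log2 intensity of each IRF gene (vertical axis, a scale per gene) on each of the 29 arrays, by group, with a line at the group mean, open circles for unstimulated replicates 6 to 8 and a dotted line at the filter (log2 6.99) where it falls in the range. Irf4 is highest with IL-4 (9.51 to 10.06) and Irf7 lowest there (6.63 to 7.42).

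Irf4 had the largest difference of the family and rose with IL-4. It reached 10.06, 9.91, 9.52, 9.69 and 9.51 on the 5 IL-4 arrays, against a lowest of 5.83, a median of 6.58 and a highest of 7.01 on the 8 unstimulated arrays. Every IL-4 array lay above every unstimulated one, and the log2 difference was 3.28 ± 0.17 (SE, limma adjusted p = 8.19e-16). The unstimulated mean (6.46) lies under the filter, so no fold is given. The same-numbered pairs of the first set put IL-4 above unstimulated in 5 of 5, by 2.69 to 3.19.

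Irf4 was lower in both combinations than with IL-4 alone. With IL-4 plus IL-6 it was at 7.40, 6.65, 7.01, 7.16 and 7.30, all below the 5 IL-4 arrays, a log2 difference of -2.64 ± 0.18 (6.22-fold lower, adjusted p = 8.07e-13). With IL-4 plus IL-10 it was at 8.57, 8.29 and 8.57, also below every IL-4 array, a log2 difference of -1.27 ± 0.21 (2.41-fold lower, adjusted p = 1.48e-05). That second difference crosses the 2 sets. With a term for the set it came to -0.45 with an adjusted p of 0.0914, and with the set and the replicate number as a random block to -0.45 with an adjusted p of 0.0397. Both combinations stayed above their single cytokine, by 1.15 ± 0.18 for IL-4 plus IL-6 against IL-6 (adjusted p = 3.68e-06) and by 3.24 ± 0.24 for IL-4 plus IL-10 against IL-10 (adjusted p = 3.58e-12), in 5 of 5 and 3 of 3 same-numbered pairs. The IL-6 and IL-10 means (5.95 and 5.23) lie under the filter, so the sizes of these 2 differences are not read.

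Against unstimulated arrays, Irf4 with IL-4 plus IL-10 was 2.02 ± 0.20 higher on the log2 scale (adjusted p = 5.98e-10). With IL-4 plus IL-6 it was 0.65 ± 0.17 higher (adjusted p = 0.000969), the arrays overlapped, and a term for the set brought the difference to 0.34 (adjusted p = 0.0163). With IL-6 alone Irf4 had 6.00, 5.73, 5.87, 6.10 and 6.05, and with IL-10 alone 5.33, 5.38 and 4.99. These log2 differences from unstimulated, -0.50 ± 0.17 (adjusted p = 0.0168) and -1.22 ± 0.20 (adjusted p = 1.27e-05), compare group means that all lie under the filter (5.95 with IL-6, 5.23 with IL-10, 6.46 unstimulated) and are not read as changes in expression. Without IL-6 replicate 2 the first was -0.45 with an adjusted p of 0.0534. A term for the set put IL-10 at -0.71 and IL-6 at -0.81.

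Irf4 was also the 1 member called between the unstimulated arrays of the 2 sets, where 19.1% of all genes were called (12.3% higher, 6.82% lower). Its values in replicates 6 to 8 were 5.83, 6.05 and 5.95, against 6.86, 6.78, 6.50, 7.01 and 6.66 in replicates 1 to 5, a log2 difference of -0.82 ± 0.14 (adjusted p = 0.000233) with both means under the filter. The Irf8 arrays of the 2 sets did not overlap either, though Irf8 was not called (-0.16 ± 0.067, adjusted p = 0.0911). Over all genes 23.4% did not overlap there. Irf4 is known to be high in plasma cells and activated B cells, and transcripts of that lineage moved with the set too. Of the 7 such markers that passed the filter, 6 were lower in replicates 6 to 8 than in 1 to 5, among them Jchain (-2.15 ± 0.42), Iglv1 (-2.01 ± 0.52), the B-cell surface gene Ms4a1 (-2.004 ± 0.39) and Ighm (-1.21 ± 0.31). The mean level of the 13 measured B-lineage markers per array ran from 5.75 to 5.90 with IL-4 plus IL-10, 6.04 to 6.10 with IL-10 and 6.11 to 6.15 in unstimulated replicates 6 to 8. In the first set it ran from 6.37 to 7.23 with IL-4 plus IL-6, 6.48 to 7.26 with IL-4, 6.65 to 7.40 with IL-6 and 6.68 to 7.34 in unstimulated replicates 1 to 5. The ranges of the first set overlap between IL-4 and unstimulated arrays. Among the 13 markers, Pax5, Ebf1 and Cd79a had group means of at most 5.22, under the filter, while 7 passed it. A measure of RNA quality, how far the 3' Actb control probe set lies above the 5' one (log2), was 0.441 ± 0.070 in replicates 6 to 8 and 0.318 ± 0.0089 in replicates 1 to 5 (SD). It also moved with treatment in the first set, from 0.345 to 0.391 with IL-4 plus IL-6, 0.294 to 0.340 with IL-4 and 0.220 to 0.263 with IL-6, against 0.309 to 0.329 in unstimulated replicates 1 to 5. The part of these in the differences of Irf4, and of RNA quality in those of Irf1 and Irf5 wherever IL-6 was given, was not tested.

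A second Irf4 probe set lay under the filter in every group, at means of 4.88 to 5.61. It moved in the same direction as the first with IL-4 against unstimulated (0.73 ± 0.085 on the log2 scale). The same held with IL-4 plus IL-6 against IL-4 (-0.46 ± 0.094), at values where background may limit the size. It did not follow the first with IL-6 (0.09 ± 0.085 against -0.50) or with IL-10 (0.005 ± 0.10 against -1.22).

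Irf5 was raised by IL-4 alone and lowered by IL-6, IL-10 and both combinations. The IL-4 arrays had 10.24, 10.21, 10.18, 10.18 and 10.12, against 9.82, 9.92 and 10.06 as lowest, median and highest of the unstimulated arrays. All 5 lay above all 8, a log2 difference of 0.25 ± 0.044 (1.19-fold, adjusted p = 1.91e-05). IL-6 arrays had 9.71, 9.65, 9.77, 9.64 and 9.55, all below the unstimulated arrays (-0.27 ± 0.044, adjusted p = 1.83e-05). The IL-10 arrays, at 9.78, 9.85 and 9.69, overlapped them (-0.16 ± 0.053, adjusted p = 0.0196), and the call was lost without IL-10 replicate 3 (-0.12, adjusted p = 0.147) and with a term for the set (-0.14, adjusted p = 0.102). It held with the set and the replicate block (-0.14, adjusted p = 0.0229), and 3 of 3 pairs were lower.

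Irf5 was lowest with IL-4 plus IL-6. With IL-4 plus IL-6 it was at 9.27, 9.26, 9.14, 9.22 and 9.10, below every array of every other group. The log2 difference was -0.99 ± 0.049 against IL-4 (1.98-fold lower, adjusted p = 5.40e-16), -0.46 ± 0.049 against IL-6 (adjusted p = 3.40e-09) and -0.73 ± 0.044 against unstimulated (adjusted p = 1.67e-14). Within same-numbered pairs the fall against IL-4 was between -1.04 and -0.95 in 5 of 5. With IL-4 plus IL-10 Irf5 was at 9.53, 9.77 and 9.63, overlapping the IL-6 and the IL-10 arrays, which is -0.54 ± 0.057 against IL-4 (adjusted p = 1.07e-08) and -0.29 ± 0.053 against unstimulated (adjusted p = 2.40e-05). Against IL-10 it was -0.13 ± 0.064 with an adjusted p of 0.0810, and 0.0205 with the set and the replicate block. The other Irf5 probe set lay under the filter in every group, at means of 6.25 to 6.51, and averaging the 2 took the IL-6 difference to -0.12 (adjusted p = 0.0505) and the IL-10 difference to -0.04 (adjusted p = 0.628).

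Irf7, the factor that amplifies type I interferon production, fell most with IL-4. Its IL-4 arrays had 7.42, 7.07, 7.19, 7.25 and 6.63, against 8.49, 8.60 and 8.95 as lowest, median and highest unstimulated values. No IL-4 array reached an unstimulated one, and the log2 difference was -1.52 ± 0.11 (2.88-fold lower, adjusted p = 1.43e-12). IL-4 replicate 5 alone lies under the filter.

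With IL-4 plus IL-6 Irf7 was at 7.86, 7.91, 7.60, 7.43 and 7.46, with its lowest array next to the highest IL-4 one and the others above it (0.54 ± 0.12, 1.45-fold, adjusted p = 0.000325) and below every unstimulated one (-0.98 ± 0.11, adjusted p = 4.11e-09). With IL-4 plus IL-10 it was at 7.49, 7.79 and 7.30, overlapping IL-4. That difference, 0.41 ± 0.14 (adjusted p = 0.0129), lost its call without IL-4 plus IL-10 replicate 2 (0.28, adjusted p = 0.131) and with a term for the set and the replicate block (0.34, adjusted p = 0.0870). Against unstimulated arrays it was -1.11 ± 0.13 (adjusted p = 1.43e-08). Both combinations lay below their single cytokine, by -1.20 ± 0.12 for IL-4 plus IL-6 against IL-6 (adjusted p = 1.06e-09) and -0.80 ± 0.15 for IL-4 plus IL-10 against IL-10 (adjusted p = 6.57e-05).

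Without IL-4, changes in Irf7 were small. IL-6 arrays had 9.02, 8.94, 8.89, 8.73 and 8.66 (0.21 ± 0.11 against unstimulated, adjusted p = 0.120) and IL-10 arrays 8.46, 8.26 and 8.26 (-0.31 ± 0.13, adjusted p = 0.0570). Neither was called, though the IL-10 arrays all lay below the unstimulated ones. With the set and the replicate block both were, at 0.24 (adjusted p = 0.0481) and -0.36 (adjusted p = 0.0266), and the same-numbered pairs were higher with IL-6 in 5 of 5 and lower with IL-10 in 3 of 3.

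Irf9, the DNA-binding partner of STAT2 in ISGF3, was lower in all 3 groups that received IL-4. It was at 8.70, 8.62, 8.58, 8.76 and 8.56 with IL-4, against 8.92, 9.10 and 9.29 (lowest, median, highest) in unstimulated arrays, and the groups did not overlap (-0.46 ± 0.064, 1.38-fold lower, adjusted p = 5.33e-07). IL-4 plus IL-10 arrays, at 8.52, 8.53 and 8.56, were lowest (-0.57 ± 0.076 against unstimulated, adjusted p = 1.69e-07). IL-4 plus IL-6 arrays, at 8.78, 8.98, 8.87, 8.94 and 8.70, lay between IL-4 and unstimulated (0.21 ± 0.071 against IL-4, adjusted p = 0.0124, and -0.25 ± 0.064 against unstimulated, adjusted p = 0.000913), overlapping both. IL-6 raised Irf9 to 9.50, 9.36, 9.35, 9.37 and 9.09 (0.23 ± 0.064, adjusted p = 0.00543), again with overlap, and IL-10 arrays (9.03, 9.01 and 9.06) were not called (-0.07 ± 0.076, adjusted p = 0.483). Against their single cytokines Irf9 was lower in both combinations, by -0.48 ± 0.071 for IL-4 plus IL-6 against IL-6 (adjusted p = 1.13e-06) and -0.50 ± 0.091 for IL-4 plus IL-10 against IL-10 (adjusted p = 3.30e-05).

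Irf3, which is activated by phosphorylation and is expressed in most cells, moved least with Irf2. Its group means spanned 9.34 with IL-4 to 9.59 with IL-10, and the unstimulated mean was 9.46 ± 0.08 (SD, n = 8). With IL-4 the arrays had 9.40, 9.41, 9.29, 9.30 and 9.31 and overlapped unstimulated arrays (-0.12 ± 0.046, adjusted p = 0.0235), a call lost without IL-4 replicate 3, 4 or 5 (adjusted p of 0.0541 to 0.0626) and with a term for the set (-0.10, adjusted p = 0.0919). It held with the set and the replicate block (-0.10, adjusted p = 0.0218), and 5 of 5 pairs were lower. The 1 other call was IL-4 plus IL-6 against IL-6 (-0.17 ± 0.050, adjusted p = 0.00516, lower in 5 of 5 pairs). With the set and the replicate block IL-6 against unstimulated (0.11, adjusted p = 0.0224) and IL-4 plus IL-10 against IL-10 (-0.13, adjusted p = 0.0159) were called too.

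The 4 Irf3 probe sets disagree. The one used carries the suffix that Affymetrix gives to probe sets with probes that can match other transcripts. The next brightest had means of 7.87 to 8.09 and differed by -0.08 ± 0.046 with IL-4 (adjusted p = 0.122 over the probe sets tested), and the third by 0.06 ± 0.082 (adjusted p = 0.522). With IL-4 plus IL-10 against IL-4 these 2 moved in opposite directions, by 0.22 ± 0.059 (adjusted p = 0.00182) and -0.27 ± 0.11 (adjusted p = 0.0274). The dimmest lay under the filter throughout, at 5.40 to 6.03. It differed from unstimulated by -0.63 ± 0.12 with IL-4 plus IL-6, -0.44 ± 0.14 with IL-4 plus IL-10 and -0.55 ± 0.12 with IL-4. Background may limit the size of these values. Averaging the 4 probe sets gave a call with IL-4 plus IL-6 against unstimulated (-0.19, adjusted p = 0.00320).

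**Figure D2:**
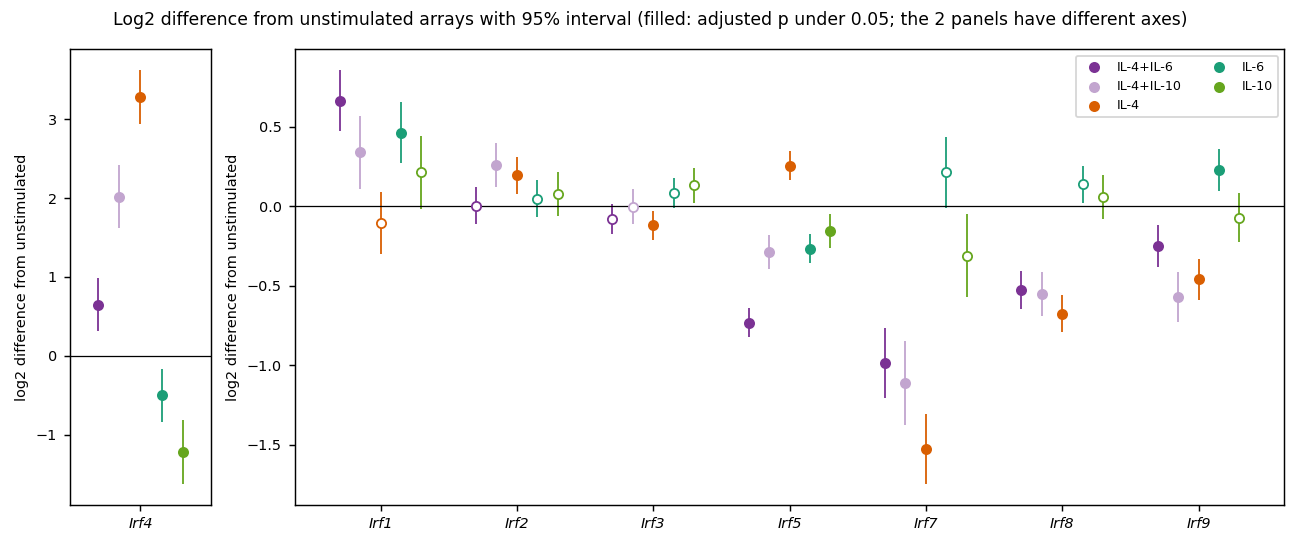
Log2 difference of each stimulated group from the unstimulated arrays (points, with 95% intervals) for Irf4 in the left panel and the other 7 genes in the right panel, on different axes, filled where limma's adjusted p was under 0.05. Irf4 runs from 3.28 with IL-4 to -1.22 with IL-10, Irf7 lies at -1.52 with IL-4, and Irf1 is highest with IL-4 plus IL-6 (0.66).

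Irf1, an activator of interferon-gamma target genes, rose with IL-6. The IL-6 arrays had 10.88, 10.78, 10.80, 10.64 and 10.56, against 10.09, 10.25 and 10.49 as lowest, median and highest unstimulated values, and the groups did not overlap (0.46 ± 0.094, 1.38-fold, adjusted p = 0.000249). IL-4 plus IL-6 arrays, at 11.15, 11.11, 10.87, 10.83 and 10.72, lay above both the unstimulated arrays (0.66 ± 0.094, 1.58-fold, adjusted p = 4.12e-07) and the IL-4 arrays (0.77 ± 0.10, 1.70-fold, adjusted p = 3.33e-07). Against IL-6 alone the combination was 0.20 ± 0.10 higher with an adjusted p of 0.0913. It was higher in 5 of 5 same-numbered pairs, and called with the set and the replicate block (adjusted p = 0.00806).

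IL-10 arrays had Irf1 at 10.37, 10.62 and 10.47, overlapping the unstimulated arrays (0.21 ± 0.11, adjusted p = 0.137). With the set and the replicate block the difference was 0.36 (adjusted p = 0.00117), and all 3 same-numbered pairs were higher, by 0.21 to 0.52. IL-4 plus IL-10 arrays, at 10.49, 10.70 and 10.64, were 0.34 ± 0.11 above unstimulated (adjusted p = 0.00834, and 0.0521 without IL-4 plus IL-10 replicate 2) and 0.44 ± 0.12 above IL-4 (adjusted p = 0.00265). The labelled replicate number as a fixed block, which matches arrays across the sets, took the first to 0.14 (adjusted p = 0.0575). The set with the replicate block within it took the first to 0.49 (adjusted p = 1.15e-05) and the second, which crosses the sets, to 0.69 (adjusted p = 1.00e-05). Against IL-10 no difference beyond the spread was found (0.13 ± 0.13, interval -0.15 to 0.40, adjusted p = 0.435). IL-4 alone gave 10.38, 10.43, 10.13, 10.06 and 9.82, with 3 arrays inside the unstimulated range and 2 below it (-0.11 ± 0.094, adjusted p = 0.343). Within same-numbered pairs it was lower in 5 of 5, by -0.31 to -0.06, and called with the set and the replicate block (-0.20, adjusted p = 0.0106).

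Irf2, the repressor that competes with IRF1 for its sites, changed little. It was 0.19 ± 0.056 higher with IL-4 (9.16, 9.19, 9.06, 9.06 and 8.99, against 8.72, 8.92 and 8.97 as lowest, median and highest unstimulated values, adjusted p = 0.00429) and 0.26 ± 0.067 higher with IL-4 plus IL-10 (8.998, 9.16 and 9.32, adjusted p = 0.00109). Both groups lay above every unstimulated array. With IL-6 added this was not seen, and IL-4 plus IL-6 arrays (9.02, 9.02, 8.79, 8.94 and 8.74) were -0.19 ± 0.062 against IL-4 (adjusted p = 0.0104), lower in 5 of 5 pairs, and 0.00 ± 0.056 against unstimulated (interval -0.11 to 0.12). IL-6 and IL-10 alone were at means of 8.94 and 8.98, against 8.90 in unstimulated arrays, and were not called. IL-4 plus IL-10 against IL-10 was 0.18 ± 0.081 with an adjusted p of 0.0518, and 0.0124 with the set and the replicate block.

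Irf8, the macrophage lineage factor, fell with IL-4 whatever was added to it. The IL-4 arrays had 10.14, 10.12, 10.16, 10.04 and 9.91, against 10.61, 10.72 and 10.93 as lowest, median and highest unstimulated values (-0.68 ± 0.057, 1.60-fold lower, adjusted p = 5.83e-11). IL-4 plus IL-6 arrays had 10.32, 10.24, 10.19, 10.26 and 10.09 (-0.53 ± 0.057, adjusted p = 3.38e-09), while those with IL-4 plus IL-10 had 10.07, 10.29 and 10.22 (-0.55 ± 0.068, adjusted p = 4.50e-08). On the probe set used, none of these arrays reached the lowest unstimulated one. Against their single cytokine the combinations were lower too, -0.66 ± 0.063 for IL-4 plus IL-6 against IL-6 (adjusted p = 4.15e-10) and -0.61 ± 0.082 for IL-4 plus IL-10 against IL-10 (adjusted p = 3.48e-07), in 5 of 5 and 3 of 3 pairs. The 10 macrophage markers also fell with IL-4, 10 of 10 called lower with a median log2 difference of -0.42. With IL-4 plus IL-6 2 were higher and 8 lower, and with IL-4 plus IL-10 0 were higher and 7 lower. Their mean level per array ran from 12.24 to 12.41 with IL-4 plus IL-6, 12.18 to 12.35 with IL-4 plus IL-10 and 12.07 to 12.21 with IL-4, against 12.77 to 12.93 in unstimulated arrays. With IL-6 and with IL-10 7 of the 10 were called higher and 1 lower, at 13.18 to 13.25 and 13.10 to 13.19. Shares over all genes were 16.1% higher and 23.2% lower with IL-6, and 18.3% and 19.5% with IL-10. Of 5 neutrophil markers that passed the filter (7 measured, 4 of them above it on every array), 5 were lower with IL-4 plus IL-6, 4 with IL-4 plus IL-10 and 4 with IL-4. For these 3 groups 38.8%, 34.0% and 31.9% of all genes tested were called lower. The mean of the 7 per array ran from 8.32 to 8.70 with IL-4 plus IL-6, 8.40 to 8.88 with IL-4 plus IL-10, 8.49 to 8.84 with IL-4, 8.58 to 8.91 with IL-6 and 8.84 to 9.22 with IL-10, against 8.73 to 9.18 in unstimulated arrays. The part of these markers in the differences of Irf8, and in those of Irf1 and Irf9 with IL-6, was not tested.

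Neither IL-6 (11.004, 10.93, 10.93, 10.84 and 10.73, 0.14 ± 0.057, adjusted p = 0.0563) nor IL-10 (10.73, 10.87 and 10.82, 0.06 ± 0.068, adjusted p = 0.528) was called for Irf8 against unstimulated arrays. With the set and the replicate block IL-10 came to 0.16 (adjusted p = 0.0171). IL-4 plus IL-6 was 0.15 ± 0.063 above IL-4 (adjusted p = 0.0435), a call lost when 1 of 6 arrays was left out in turn (adjusted p of 0.0524 to 0.151) and when no filter was used (0.0735). IL-4 plus IL-10 against IL-4 was 0.12 ± 0.073 (adjusted p = 0.150), and 0.29 with the set and the replicate block (adjusted p = 0.000967). The second Irf8 probe set fell with IL-4 too, by -0.84 ± 0.091 (adjusted p = 7.59e-09 over the probe sets tested). On it the IL-4 plus IL-10 arrays, at 9.31 to 9.44, overlapped the unstimulated ones at 9.39 to 9.95 (-0.28 ± 0.11, adjusted p = 0.0199). IL-4 plus IL-10 against IL-4, which crosses the 2 sets, was 0.56 ± 0.12 on it (adjusted p = 0.000214). The mean of the 2 probe sets gave 0.34 there (adjusted p = 0.000410). This second probe set differed from the first between the unstimulated arrays of the 2 sets, at 9.89 to 9.95 in replicates 6 to 8 and 9.39 to 9.70 in replicates 1 to 5, while the first was at 10.61 to 10.69 and 10.71 to 10.93.

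For the members as a set, IL-4 plus IL-6 against IL-4 gave 4 higher and 3 lower (60.5% of all genes called, 29.4% higher and 31.2% lower), and IL-4 plus IL-6 against IL-6 gave 1 higher and 5 lower (66.9%, 34.0% higher and 32.9% lower). IL-4 plus IL-10 against IL-4 gave 2 higher and 2 lower (57.3%, 32.7% higher and 24.6% lower), and against IL-10 1 higher and 3 lower (59.9%, 31.8% higher and 28.1% lower). Arrays did not overlap for 4 members with IL-4 plus IL-6 against IL-4 (47.6% of all genes) and 5 against IL-6 (54.9%), and for 4 with IL-4 plus IL-10 against IL-4 (52.9%) and 4 against IL-10 (62.7%). Irf4 was the 1 member higher in both comparisons that add IL-4 to the other cytokine, while Irf7, Irf8 and Irf9 were lower in both.

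Whether IL-6 or IL-10 acted differently in the presence of IL-4 was tested with the interaction, which takes the combination, subtracts each of its cytokines given alone and adds back the unstimulated mean, so that 0 means that log2 effects add. For IL-6 it was called for Irf4, Irf5 and Irf2, all negative (40.0% of all genes, 18.6% lower). Irf4 had -2.13 ± 0.25 (adjusted p = 7.07e-08), with the unstimulated and IL-6 means under the filter, so that its size cannot be read, and -1.83 with a term for the set. Irf5 had -0.72 ± 0.066 (adjusted p = 1.19e-09), with all 4 means well above the filter. The log2 difference that IL-6 made to Irf5 was -0.99 with IL-4 and -0.27 without it. Irf2 had -0.24 ± 0.084 (adjusted p = 0.0269), and lost the call when any of 4 arrays was left out (IL-4 replicate 1 or 2, IL-4 plus IL-6 replicate 3 or 5, adjusted p of 0.0507 to 0.0642). Irf1 had 0.31 ± 0.14 with an adjusted p of 0.0850, and 0.40 with an adjusted p of 0.000875 under the set and the replicate block.

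For IL-10 the interaction was called for Irf5, at -0.38 ± 0.078 (adjusted p = 0.000556), and for Irf7, at 0.72 ± 0.19 (adjusted p = 0.00563), where 25.6% of all genes were called (15.5% higher, 10.1% lower). The log2 difference that IL-10 made to Irf7 was 0.41 with IL-4 and -0.31, not called, without it. Irf4 had -0.04 ± 0.29 (interval -0.63 to 0.55), an interval too wide to show whether the effects add. Irf8 and Irf9 were not called in either interaction, with estimates of 0.01 ± 0.085 and -0.02 ± 0.095 for IL-6 and 0.07 ± 0.10 and -0.04 ± 0.11 for IL-10. Irf1 came to 0.32 (adjusted p = 0.0211) under the set and the replicate block, against 0.23 ± 0.16 (adjusted p = 0.314) without them.

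**Figure D3:**
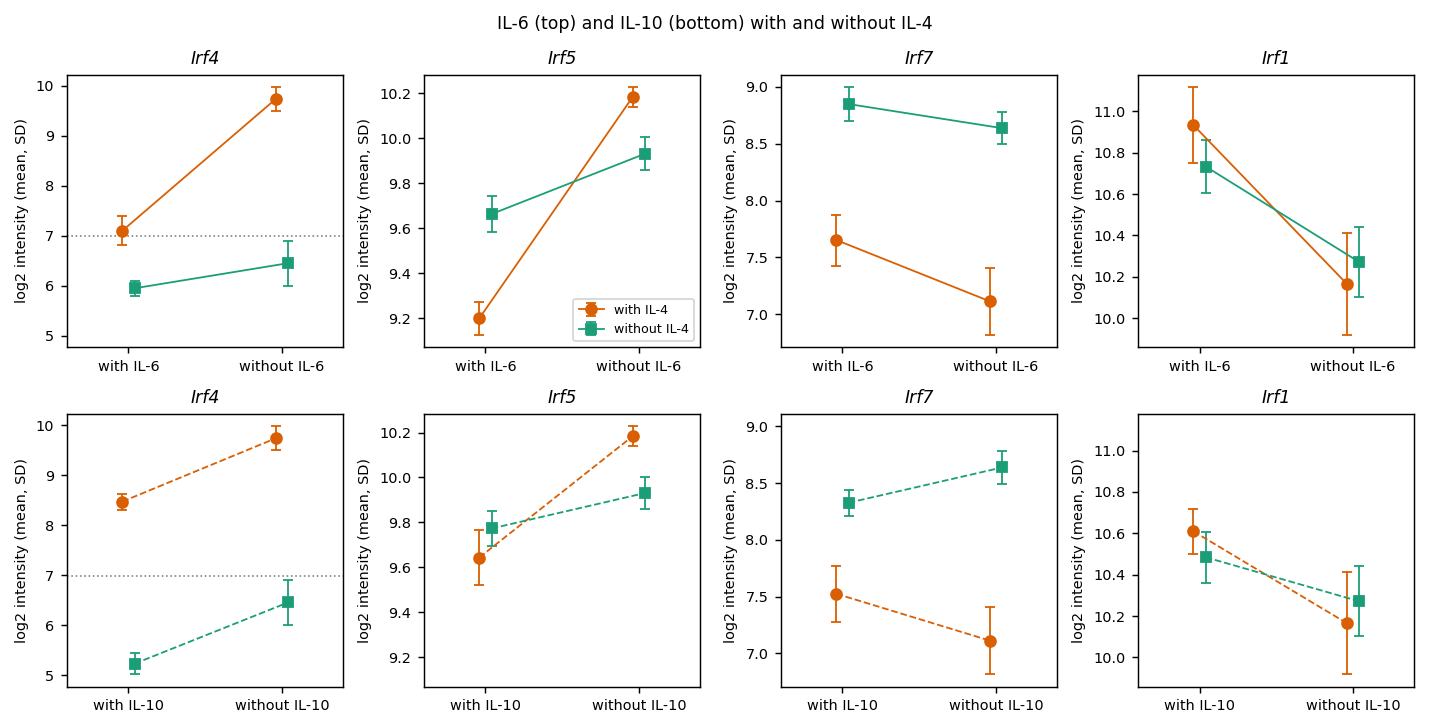
Group means with SD (log2 intensity) for Irf4, Irf5, Irf7 and Irf1 with and without IL-6 (top row, solid lines) and with and without IL-10 (bottom row, dashed lines), in the presence of IL-4 (circles) and in its absence (squares), with a dotted line at the filter for Irf4. The lines for Irf5 cross: with IL-4 its mean is 9.20 with IL-6 and 10.18 without it, and in the absence of IL-4 9.66 with IL-6 and 9.93 without it.

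From highest to lowest, the group means of Irf4 ran IL-4 (9.74), then IL-4 plus IL-10 (8.47), then IL-4 plus IL-6 (7.10), then unstimulated (6.46), then IL-6 (5.95) and IL-10 (5.23), and the arrays of IL-4 plus IL-6 and unstimulated, and of unstimulated and IL-6, overlapped. Irf7 ran IL-6 (8.85), then unstimulated (8.64), then IL-10 (8.33), then IL-4 plus IL-6 (7.65), then IL-4 plus IL-10 (7.52) and last IL-4 (7.11), with a gap between IL-10 and the 3 groups that received IL-4. Irf8 had the same split on the probe set used. Above it were IL-6 (10.89), then IL-10 (10.81) and unstimulated (10.75). Below it were IL-4 plus IL-6 (10.22), then IL-4 plus IL-10 (10.20) and last IL-4 (10.07), with overlap between neighbours on either side of the split. Irf9 ran IL-6 (9.33), then unstimulated (9.11), then IL-10 (9.03), then IL-4 plus IL-6 (8.85), then IL-4 (8.65) and IL-4 plus IL-10 (8.53). Irf5 ran IL-4 (10.18), then unstimulated (9.93), then IL-10 (9.77), then IL-6 (9.66), then IL-4 plus IL-10 (9.64) and last IL-4 plus IL-6 (9.20), where the 4 groups in the middle overlapped with their neighbours. Irf1 ran IL-4 plus IL-6 (10.93), then IL-6 (10.73), then IL-4 plus IL-10 (10.61), then IL-10 (10.48), then unstimulated (10.27) and IL-4 (10.17), each overlapping the next. Neighbours overlapped throughout for Irf2 and Irf3, whose means spanned 0.26 and 0.25.

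Genes most like each member were taken by the root mean square difference of the 5 log2 differences from unstimulated, which share the unstimulated arrays. Nearest to Irf4 was Ccl22, a chemokine that attracts type 2 helper T cells (0.503). Its log2 differences were 0.66 with IL-4 plus IL-6, 1.77 with IL-4 plus IL-10, 2.66 with IL-4, -0.43 with IL-6 and -0.32 with IL-10, and like Irf4 it has means under the filter without IL-4. Nearest to Irf7 were the costimulatory ligand Cd86 (0.189), the AMP deaminase Ampd3 (0.227) and the interferon-responsive nucleotide kinase Cmpk2 (0.240). Nearest to Irf1 were the Fc receptor Fcgr3 (0.0702) and Stat2 (0.0755). Nearest to Irf8 were the inhibitory receptor Sirpa (0.0627), Vps39 (0.0629) and the ADP-ribosyltransferase Parp14 (0.0757), and nearest to Irf9 Slc35a5 (0.0582) and Parp12 (0.0591). Nearest to Irf5 were Phka2 (0.0797), the replication helicase subunit Mcm7 (0.0815) and the replication protein Rpa2 (0.0815). Erc1 (0.0309) was nearest to Irf2 and Cd99l2 (0.0320) to Irf3. Between members, Irf8 and Irf9 were closest (0.172), then Irf2 and Irf3 (0.190), and Irf4 and Irf7 were farthest apart (2.72).

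Upstream of the family lie the interferon receptors and ISGF3 partners (8 genes tested of 9 listed). The sensors, adaptors and kinases that activate IRF3, IRF5 and IRF7 are a second list (16 tested of 29 listed). Both lists held more genes called higher than lower with IL-6. Over all genes tested 16.1% were called higher and 23.2% lower with IL-6, 18.3% and 19.5% with IL-10 and 27.6% and 31.9% with IL-4. With IL-6, 6 of the 8 receptor-side genes rose and 1 fell, among them Stat2 (0.46 ± 0.087) and the interferon-gamma receptor chain Ifngr2 (0.58 ± 0.19), with a list median of 0.19 against -0.03 over all genes tested. Ifngr2 also differed between the unstimulated arrays of the 2 sets (-1.18 ± 0.084 in replicates 6 to 8 against 1 to 5). Among the sensors 7 of 16 rose with IL-6 and 0 fell, led by the Toll-like receptor adaptor Myd88 (0.97 ± 0.046) and the DNA-sensing adaptor Sting1 (0.96 ± 0.090). With IL-10 the sensors gave 4 higher, Myd88 again first (0.96 ± 0.055), and 1 lower, the RNA sensor Tlr8 (-0.45 ± 0.17), and the receptor side 3 higher, among them Ifnar1 (0.43 ± 0.049), and 0 lower. With IL-4 the sensors gave 2 higher and 8 lower, including the RNA sensor Tlr7 (-0.95 ± 0.063), the transporter Slc15a4 (-0.56 ± 0.075) and the kinase Ikbke (-0.56 ± 0.077). The receptor side gave 2 higher, with the kinase Jak2 first (0.97 ± 0.036), and 3 lower, near the shares over all genes tested.

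With IL-4 plus IL-6 the sensors gave 4 higher and 10 lower, with Sting1 higher (1.17 ± 0.090) and Ikbke lower (-0.95 ± 0.077), and with IL-4 plus IL-10 3 higher and 11 lower, with Tlr7 the lowest of the list (-1.21 ± 0.074). Their medians were -0.23 and -0.28, against -0.02 and 0.02 over all genes tested. On the receptor side IL-4 plus IL-6 gave 3 higher and 3 lower and IL-4 plus IL-10 2 higher and 2 lower. Over all genes tested 35.0% were higher and 38.8% lower with IL-4 plus IL-6, and 38.1% and 34.0% with IL-4 plus IL-10. The receptor-side counts are near or below these shares. Jak2 was higher by 2.35 ± 0.036 in the IL-6 combination and by 1.90 ± 0.043 in the IL-10 combination. The interferon-gamma receptor chain Ifngr1 was lower there, at -1.21 ± 0.049 and -0.88 ± 0.058.

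For the partners of IRF proteins (15 tested of 21 listed), counts of higher and lower genes were 8 and 3 with IL-4 plus IL-6, 7 and 3 with IL-4 plus IL-10, 7 and 3 with IL-4, 7 and 2 with IL-6, and 5 and 1 with IL-10. Over all genes tested 35.0%, 38.1%, 27.6%, 16.1% and 18.3% were called higher in these groups in the same order. Batf, which pairs with JUN proteins and IRF4 or IRF8, was higher with IL-4 plus IL-6 (1.81 ± 0.084), with IL-4 plus IL-10 (1.37 ± 0.10), IL-6 (0.67 ± 0.084) and IL-10 (0.60 ± 0.10), and differed between the unstimulated arrays of the 2 sets by -0.36 ± 0.083. Batf3 was higher with IL-4 (2.70 ± 0.082) and both combinations (1.99 ± 0.082 with IL-4 plus IL-6, 2.70 ± 0.098 with IL-4 plus IL-10), and was lower with IL-4 plus IL-6 than with IL-4 (-0.70 ± 0.091), the direction of Irf4.

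Genes of the type I interferon response (28 tested of 34 listed), which ISGF3 and IRF7 are known to drive, were counted 3 higher and 19 lower with IL-4 plus IL-6, 3 higher and 19 lower with IL-4 plus IL-10, and 1 higher and 23 lower with IL-4. With IL-6 they were 14 higher and 1 lower, and with IL-10 2 higher and 7 lower. Over all genes tested 35.0%, 38.1%, 27.6%, 16.1% and 18.3% were called higher in that order of groups. Called lower were 38.8%, 34.0%, 31.9%, 23.2% and 19.5%, and the 7 of 28 with IL-10 are near that share. The list medians were -0.35, -0.51, -0.48, 0.17 and -0.04 in that order of groups, against -0.02, 0.02, -0.01, -0.03 and 0.00 over all genes tested. With IL-4, Oas2, a sensor of double-stranded RNA that makes oligoadenylate, was -1.84 ± 0.086 and Rtp4 -1.84 ± 0.086, and the 1 gene higher was Usp18, which removes ISG15 from proteins (1.05). With IL-6, the nucleic acid sensor Zbp1 was 0.85 ± 0.080 and the chemokine Cxcl10 1.05 ± 0.12 higher. With IL-10, Oasl2 was -0.80 ± 0.089 and Usp18 -0.77 ± 0.12. Adding IL-6 to IL-4 put 17 of the 28 higher and 3 lower than IL-4 alone, with Zbp1 (1.28 ± 0.088) and Oas2 (1.27 ± 0.096) first. Over all genes tested 29.4% were higher and 31.2% lower there. Adding IL-10 put 8 higher and 5 lower, not above the 32.7% and 24.6% over all genes tested. Irf7 was called higher in both of these comparisons. The second crosses the 2 sets, and a term for the set lost that Irf7 call (0.34, adjusted p = 0.193).

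Of the genes linked to IRF1 and interferon-gamma (18 tested of 26 listed), 7 were higher and 4 lower with IL-4 plus IL-6, 7 and 2 with IL-4 plus IL-10, 6 and 5 with IL-4, 8 and 0 with IL-6, and 8 and 2 with IL-10. With IL-4 and with IL-4 plus IL-6 these are near the shares over all genes tested (27.6% higher and 31.9% lower, and 35.0% higher and 38.8% lower). With IL-4 plus IL-10 the count higher is near its share (38.1% higher and 34.0% lower). The shares are 16.1% and 23.2% with IL-6, and 18.3% and 19.5% with IL-10. The inflammatory caspase Casp4 was higher with IL-6 (1.07 ± 0.059) and IL-10 (1.17 ± 0.071), and the guanylate-binding protein Gbp7 with IL-6 (1.09 ± 0.15) and IL-10 (0.81 ± 0.18). With IL-4, Gbp2 (1.47 ± 0.21) and Ciita, the master regulator of MHC class II genes (1.25 ± 0.24), were higher. IL-4 plus IL-6 had Gbp7 2.30 ± 0.17 above and Ciita -1.75 ± 0.27 below IL-4 alone.

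Genes linked to IRF8 in myeloid cells (7 tested of 10 listed) gave 1 higher and 4 lower with IL-4 plus IL-6, 1 and 5 with IL-4 plus IL-10, 1 and 5 with IL-4, 1 and 2 with IL-6, and 2 and 3 with IL-10. Over all genes tested 35.0%, 38.1%, 27.6%, 16.1% and 18.3% were called higher in the same order. Called lower were 38.8%, 34.0%, 31.9%, 23.2% and 19.5%, and the counts with IL-6 are near both shares. Cybb, the catalytic subunit of the phagocyte oxidase, was -2.39 ± 0.11 with IL-4 plus IL-6, -2.73 ± 0.14 with IL-4 plus IL-10 and -1.07 ± 0.11 with IL-4, and the cytokine Il18 -0.95 ± 0.085, -1.01 ± 0.10 and -1.01 ± 0.085 in the same groups. The 1 gene higher in these 3 groups was Klf4 (2.49 ± 0.061 with IL-4 plus IL-6, 2.35 ± 0.073 with IL-4 plus IL-10, 2.31 ± 0.061 with IL-4), a factor of monocyte differentiation that is also linked to IRF4. The 3 inflammatory cytokines linked to IRF5 that passed the filter were Tnf, Il1b and Il10. Tnf was lower in all 5 groups (-1.34 ± 0.059 with IL-4 plus IL-6, -1.02 ± 0.070 with IL-4 plus IL-10, -0.69 ± 0.059 with IL-4, -0.39 ± 0.059 with IL-6, -0.38 ± 0.070 with IL-10). Il1b was higher with IL-6 (1.33 ± 0.13) and IL-10 (2.24 ± 0.16), and lower in the 3 groups that received IL-4 (-1.22 ± 0.13 with IL-4 plus IL-6, -0.98 ± 0.16 with IL-4 plus IL-10, -1.20 ± 0.13 with IL-4), where its means lie under the filter. Il10 was called higher with IL-6 (1.197 ± 0.10), IL-10 (1.26 ± 0.12) and the 2 combinations (0.33 ± 0.10 with IL-6, 0.32 ± 0.12 with IL-10) and lower with IL-4 (-1.63 ± 0.10), and its unstimulated and IL-4 means lie under the filter.

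Genes of alternative activation linked to IRF4 (11 tested of 12 listed) were 9 higher and 1 lower with IL-4 plus IL-6, 9 and 1 with IL-4 plus IL-10, 10 and 1 with IL-4, 3 and 2 with IL-6, and 2 and 2 with IL-10. Over all genes tested 35.0%, 38.1%, 27.6%, 16.1% and 18.3% were called higher in the same order. Called lower were 38.8%, 34.0%, 31.9%, 23.2% and 19.5%, and the counts with IL-10 are near both shares. When IL-6 was added to IL-4, 6 were higher and 3 lower than IL-4 alone. Over all genes tested 29.4% were higher and 31.2% lower there, so the count lower is near its share. Irf4 was lower in that comparison (-2.64). So were Ccl22 (-2.001 ± 0.11, means of 7.14 and 9.14) and Ccl17, a ligand of the same receptor (-2.55 ± 0.12, means of 5.89, under the filter, and 8.44). The eosinophil chemokine Ccl24 (3.83 ± 0.15), the arginase Arg1 (2.63 ± 0.084) and the PD-1 ligand Pdcd1lg2 (2.62 ± 0.13) were higher. With IL-4 plus IL-10 against IL-4 it was 4 higher and 3 lower, near the 32.7% and 24.6% over all genes tested. Ccl24 (3.43 ± 0.17) and Arg1 (2.26 ± 0.097) were again higher and Ccl22 (-0.89 ± 0.13) lower. The dendritic cell marker Cd209a, a lectin, had means of 10.10 with IL-4 plus IL-6 and 7.46 with IL-4 plus IL-10, against 5.66 with IL-4. The mean of the 7 dendritic cell markers per array ran from 6.54 to 6.74, 6.28 to 6.45 and 5.97 to 6.17 in these groups. That mean includes Cd209a, and a mean without it was not taken. Of the 3 dendritic cell markers that passed the filter, 2 were called higher and 1 lower with IL-4 plus IL-6 against IL-4. With IL-4 plus IL-10 against IL-4 it was 1 higher and 0 lower. Flt3, Zbtb46 and Xcr1 had means under the filter in every group. Ccl17 and Ccl22 in these comparisons, Usp18 with IL-4, Ighm, and the markers Pax5, Ebf1, Cd79a, Cd209a, Flt3, Zbtb46 and Xcr1, were named after their values were seen.

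**Figure D4:**
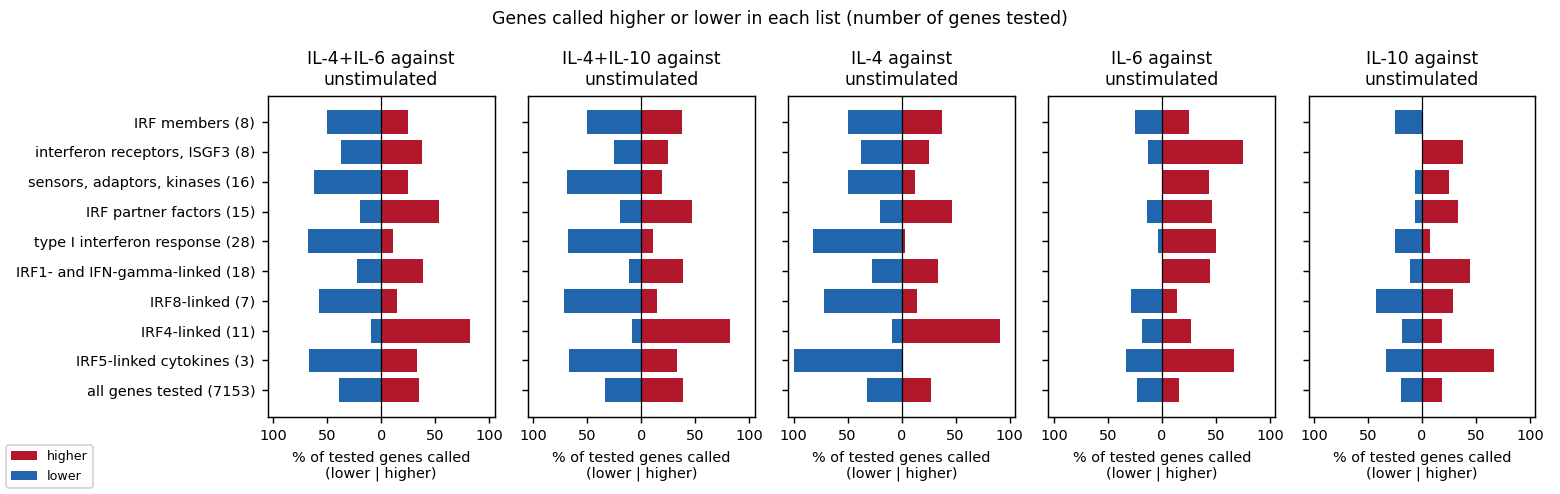
Share of the tested genes of each list (number in brackets) called higher (right, red) or lower (left, blue) in each stimulated group against unstimulated arrays, with all genes tested as the bottom row. The type I interferon response bars point left in the 3 groups that received IL-4 (23 of 28 lower with IL-4) and right with IL-6 (14 of 28 higher).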

How the data were processed

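RNA was measured on 29 Affymetrix 3' arrays. The authors deposited log2 intensities of 22690 probe sets (2.45 to 15.13). GCOS 1.4 and RMA are named per the submitters' processing notes, and the log base was inferred from the values. The genome build, the RMA version and which arrays shared a normalization run are not given in the sources used here. RMA summarises probes and shares its scaling between arrays, which narrows the spread between replicates. Array medians were 6.95 to 7.03, correlations between arrays 0.973 to 0.998, and 0 pairs were identical. Arrays have no depth, and their number limits the precision.

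From these values, GEO's platform annotation named 1 gene for 20380 probe sets, several for 691 and none for 1606. The highest-mean probe set stood for each gene. limma 3.58.1 (R 4.3.3, lmFit and eBayes) was fitted to 7153 genes with a mean per group and Benjamini-Hochberg adjustment, for 11 comparisons and for the 2 sets of unstimulated arrays. The fit was tested on simulated data. The members and the gene lists were chosen with earlier results of these data known. From each list, up to 3 called genes with the largest differences in a comparison could be named, and for each IRF gene the 3 tested genes most like it. Alternatives were a filter at the 75th percentile or none at all, quantile normalization, the mean of the probe sets or each by itself, only the groups compared, a variance trend with robust eBayes, a threshold of 0.01, terms for the set and the replicate block, unstimulated arrays of the same set, and leaving out each array.

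Replicate numbers were taken to pair arrays within a set, which no label states. Deviations from the group means correlated over 0.1 in 30 of 30 same-numbered pairs of the first set (0.415 to 0.700) and in 9 of 9 of the second (0.116 to 0.776). Pairs with different numbers did so in 34 of 120 of the first set (-0.557 to 0.511) and in 2 of 18 of the second (-0.520 to 0.266). The fit as reported leaves this pairing out. The replicate block was a random effect of set and number (consensus correlation 0.325). A separate setting took the labelled number as a fixed block. Its matches across the sets, 24 pairs, had correlations of -0.685 to 0.518 with a median of -0.331.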

Additional observations from a re-analysis of the deposited data

Results flagged for a closer look

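Unstimulated replicate 7 had Irf3 at 9.66, apart from the other 7 unstimulated arrays at 9.40 to 9.46. Without it, Irf3 gained 4 calls in limma, with IL-6 against unstimulated (0.11, adjusted p = 0.0300), with IL-10 against unstimulated (0.16, adjusted p = 0.00896), with IL-4 plus IL-10 against IL-4 (0.12, adjusted p = 0.0466) and with IL-4 plus IL-10 against IL-10 (-0.13, adjusted p = 0.0423). Unstimulated replicate 6 had Irf7 at 8.95, apart from the others at 8.49 to 8.68. These are 2 of the 56 groups of arrays tested, and chance gives about 1 in 20.

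The response to IL-6 differed by the presence of IL-4 for Irf2, with an interaction of -0.24 on the log2 scale, for Irf4, with -2.13, and for Irf5, with -0.72. The response to IL-10 differed by the presence of IL-4 for Irf5, with -0.38, and for Irf7, with 0.72. For IL-10 the arrays with IL-4 alone lie in the first set and those with IL-10 in the second. The interaction itself was tested in each case, and the Irf4 value rests on means under the filter.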

How the results depend on the processing

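Of 1068 results for single IRF genes under the 12 other settings, 21 lost and 46 gained a call and 0 reversed, and of 2784 with 1 array left out, 17 lost and 28 gained a call and 0 reversed. The number of members called with IL-10 against unstimulated was 1 with the mean of the probe sets and 1 at an adjusted p under 0.01, against 2 as reported. It was 5 with the labelled replicate number as a fixed block, which matches arrays across the sets, and 5 with the set and the replicate block. With IL-6 it was 2 with the mean of the probe sets, against 4. For IL-4 plus IL-10 against IL-10 that fixed block gave 7 and the set with the replicate block 7, against 4. At an adjusted p under 0.01, IL-4 plus IL-6 against IL-4 gave 4, against 7. The interaction of IL-4 and IL-10 gave 1 at the 75th percentile filter, against 2, where Irf7 could not be tested. Unstimulated replicates 6 to 8 against 1 to 5 gave 2 with quantile normalization and 2 with the mean of the probe sets, against 1. The cause was not tested for the other changes. The pairing changed no other count by over 1.5 times. The block and the set terms give no value for the comparison of the unstimulated arrays, nor matched controls for the interaction of IL-4 and IL-10. Signal near background limits Irf4 without IL-4, the second probe sets of Irf4 and Irf5 and the dimmest of Irf3.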
